A study of Mus musculus with 2 samples.

Results

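The Prl, Psg and Ceacam genes are 3 mouse gene families that expanded by tandem duplication and are best known from the placenta. Members were the protein-coding genes of GRCm38 whose symbol is Prl, Prl followed by a number, a letter and a number, Psg followed by a number, or Ceacam followed by a number. This gave 54 of 21770 protein-coding genes: 26 Prl, 13 Psg and 15 Ceacam genes. The rule uses symbols alone, although it was written with earlier results of these data known.

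ChIP-seq (chromatin immunoprecipitation and sequencing) was used to map H3K9me3, trimethylation of lysine 9 of histone H3, in intestinal stem cells. Both libraries came from C57BL/6 mice aged 8 weeks whose genotype is given as Lgr5-EGFP-IRES-creERT2;setdb1fl/fl, and cells with high GFP and low CD24 were sorted from them. Lgr5, whose locus drives EGFP and the inducible Cre recombinase in this model, marks cycling crypt stem cells, Setdb1 encodes an H3K9 methyltransferase, and the labels do not say whether Cre had been induced. Cells of 12 mice gave 1 ChIP library made with an H3K9me3 antibody, and 1 control library carries both the words input and IgG in its labels. Neither group has a replicate, so no test was made between them, and intervals below are for counting error only.

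The Prl family descends from prolactin, the pituitary hormone encoded by Prl, and its other members are made mostly by trophoblast and decidua cells in pregnancy. They include the placental lactogens, which act through the prolactin receptor Prlr, and the proliferins. Psg genes encode secreted pregnancy-specific glycoproteins of trophoblast. Ceacam genes encode related immunoglobulin-like adhesion molecules: several are expressed in trophoblast, Ceacam1 is found on epithelia including gut, and Ceacam20 lies on the microvilli of intestinal epithelial cells. H3K9me3 is written by methyltransferases, is bound by HP1 proteins and is known to cover some arrays of duplicated genes, and most of the genes here are silent outside their own tissue. Gene expression was not measured here.

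The authors' list held 40119 peaks, with a median of 17.3 normalized tags per peak (tags scaled to a fixed library total), or 16.5 tags. The lowest was 9 tags, so a stretch with fewer tags appears as no peak. Peaks in the top 10% by normalized tags, at or above 50.8, are called strong. Among cell type marker genes, peaks lay over or within 5 kb of 4 of 5 stem cell markers (Lgr5 had 4 peaks, and Olfm4 had 0). The same was counted for 2 of 4 enterocyte markers and 0 of 4 immune cell markers, beside 55.6% of all protein-coding genes. These counts describe the mark and say nothing of the genes in use or of the identity of the cells.

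Sequence upstream of 2 sets of starts is shown. Copies as alike as those of the first set bear on how tags can be placed, and none of the starts in either set lay in a peak. All are the 200 bases before the annotated start, from RefSeq on GRCm38.p6, read in the direction of the gene. The first set is the placental lactogen I genes, with capitals for the letters TGANTCA, the form of an AP-1 site. Prl3d1 is at chr13:27093989-27094188, Prl3d2 at chr13:27121495-27121694 and Prl3d3 at chr13:27156594-27156793, all on the plus strand.
Prl3d1: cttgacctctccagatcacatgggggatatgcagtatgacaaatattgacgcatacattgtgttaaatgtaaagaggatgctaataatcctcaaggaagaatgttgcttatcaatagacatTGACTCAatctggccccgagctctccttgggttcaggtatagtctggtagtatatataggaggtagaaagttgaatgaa
Prl3d2: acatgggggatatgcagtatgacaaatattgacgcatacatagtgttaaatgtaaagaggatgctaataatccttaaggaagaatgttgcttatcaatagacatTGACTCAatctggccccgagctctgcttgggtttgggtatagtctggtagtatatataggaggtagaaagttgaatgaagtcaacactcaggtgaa
Prl3d3: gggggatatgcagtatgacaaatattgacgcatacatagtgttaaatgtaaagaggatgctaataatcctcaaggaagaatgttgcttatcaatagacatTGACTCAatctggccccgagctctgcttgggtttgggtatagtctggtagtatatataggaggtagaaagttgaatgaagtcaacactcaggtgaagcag
The second set holds the Psg gene whose start lay closest to a peak, then Ceacam2, and then the gut-expressed Ceacam20 and Ceacam1, with capitals for each CG. Psg26 is at chr7:18484150-18484349, Ceacam2 at chr7:25540005-25540204 and Ceacam1 at chr7:25477626-25477825 on the minus strand, and Ceacam20 at chr7:19965212-19965411 on the plus strand.
Psg26: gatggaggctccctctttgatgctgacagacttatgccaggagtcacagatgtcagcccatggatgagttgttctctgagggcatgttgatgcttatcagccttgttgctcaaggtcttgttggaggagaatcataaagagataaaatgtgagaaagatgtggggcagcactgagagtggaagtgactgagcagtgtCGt
Ceacam2: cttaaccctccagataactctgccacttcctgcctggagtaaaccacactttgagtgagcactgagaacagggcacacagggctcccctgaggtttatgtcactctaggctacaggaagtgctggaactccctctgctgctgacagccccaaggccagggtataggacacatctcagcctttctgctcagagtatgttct
Ceacam20: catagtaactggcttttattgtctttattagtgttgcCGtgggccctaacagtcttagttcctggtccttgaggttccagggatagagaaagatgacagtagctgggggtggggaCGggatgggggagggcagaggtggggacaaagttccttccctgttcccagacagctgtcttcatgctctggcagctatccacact
Ceacam1: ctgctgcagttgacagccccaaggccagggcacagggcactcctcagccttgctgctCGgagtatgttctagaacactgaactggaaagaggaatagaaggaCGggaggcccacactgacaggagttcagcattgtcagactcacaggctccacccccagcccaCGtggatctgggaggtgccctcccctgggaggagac

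The members carried few peaks. A gene was counted when any base of a peak lay in its span or within 5 kb of it. By this count 9 of 54 members had a peak (16.7%, exact Clopper-Pearson 95% interval 7.92 to 29.3%), against 55.6% of all protein-coding genes. Members are short, with a median length of 9.18 kb against 17.2 kb for all protein-coding genes, and the difference was as wide at similar length: among genes of 5 to 20 kb, 7 of 47 members (14.9%) and 55% of all protein-coding genes had a peak. Inside the gene span itself, 4 of 54 members (7.41%) had a peak, beside 46.6% of all protein-coding genes and 43.5% of those of 5 to 20 kb. The median member had 0 peaks and the median protein-coding gene 1. None of the 54 members had a strong peak, where 6.61% of protein-coding genes did. Neighbouring members share their chromatin and are not independent, so the interval on their share is too narrow.

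**Figure D1:**
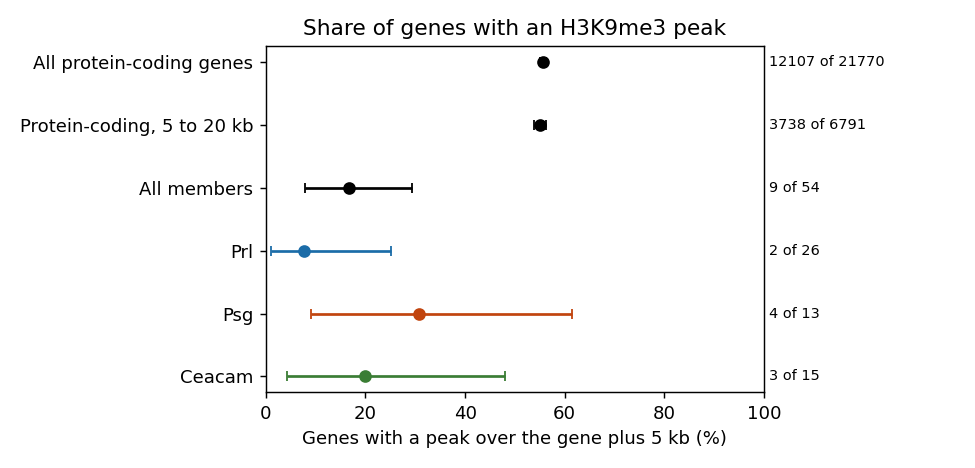
Share of genes (%) with an H3K9me3 peak over the gene plus 5 kb, for all protein-coding genes, those of 5 to 20 kb, all members and each family. Points are the shares in the single ChIP library and bars are exact Clopper-Pearson 95% intervals, with gene counts at the right; the members stand at 9 of 54 and all protein-coding genes at 12107 of 21770.

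By family, 2 of 26 Prl genes (7.69%), 4 of 13 Psg genes (30.8%) and 3 of 15 Ceacam genes (20%) had a peak. The exact 95% intervals of these shares, 0.946 to 25.1%, 9.09 to 61.4% and 4.33 to 48.1%, overlapped. Overlap of separate intervals does not settle whether shares differ, and the order of the families was not tested. On their own chromosomes, protein-coding genes of 5 to 20 kb had a peak in 35.5% of cases on chromosome 13, where all Prl genes lie, and in 60.5% of cases on chromosome 7, where all Psg and Ceacam genes lie. Other large families of duplicated genes also had low shares, at 7.84% of 1109 olfactory receptor genes and 16.8% of 352 vomeronasal receptor genes.

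Members were far from peaks on the scale of single genes and near them over wider windows. The nearest peak was at a median distance of 18.8 kb from a member, with quartiles of 9.70 and 32.3 kb, against a median of 1.48 kb and an upper quartile of 23.2 kb for all protein-coding genes. It was 27.3 kb for Prl, 14.7 kb for Psg and 17.7 kb for Ceacam genes. The most distant were Prl7a2 at 116 kb, Prl7d1 (proliferin-related protein) at 113 kb and Ceacam11 at 109 kb. Widening the window to 10 kb gave 14 of 54 members (25.9%, all protein-coding genes 62.8%). At 50 kb, a window chosen after the data were seen, 47 of 54 members had a peak, or 87%, beside 87.1% of all protein-coding genes. The members just outside the 5 kb limit were Prl3d2 at 6.00 kb, Psg17 at 6.70 kb, Prl8a6 at 7.07 kb, Ceacam10 at 7.34 kb and Ceacam15 at 9.27 kb, and the closest inside it was Prl8a2 at 4.87 kb.

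**Figure D2:**
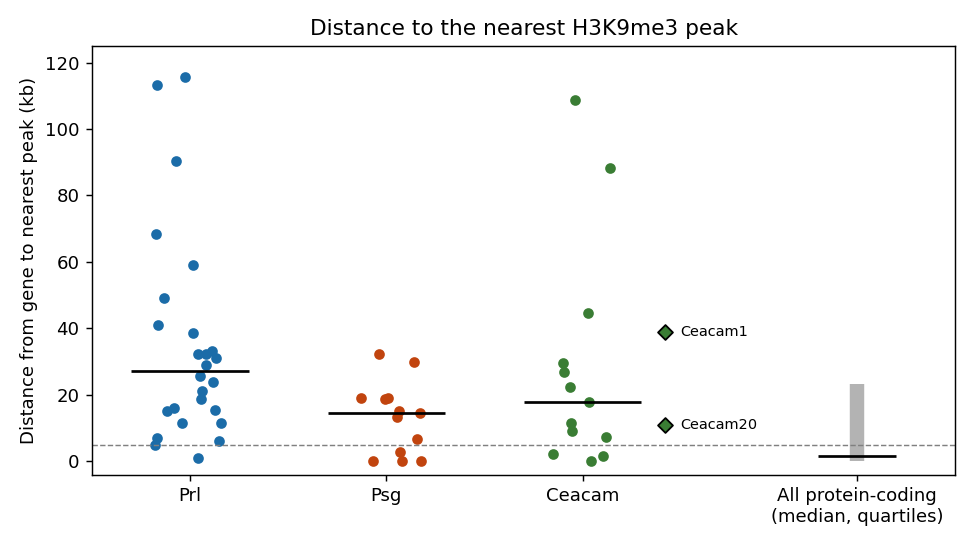
Distance (kb) from each member's span to the nearest H3K9me3 peak, by family, with the family median as a line and the 5 kb limit dashed; the bar at the right spans the quartiles of all protein-coding genes, with their median. Most members lie above the median of all protein-coding genes, and Ceacam1 and Ceacam20 (diamonds) lie at 38.9 and 11 kb.

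Among the Prl genes, the 2 with a peak were a placental lactogen and a decidual hormone. Prl3d3, a copy of placental lactogen I, had 1 peak at chr13:27163578-27164405, which began 985 bp beyond the gene's far end and held 17.5 tags (exact Poisson 95% interval 10.3 to 27.8). Prl8a2, the decidual prolactin-related protein, had 1 peak at chr13:27359090-27359723 with 13.5 tags (7.29 to 22.9), 4.87 kb from the gene. Both peaks stood at the lowest control value in the list, 0.5 tag, so the authors' folds of 23.95 and 18.47 rest on that floor. No peak overlapped the span of any of the 26 Prl genes. Prl itself was 68.4 kb from its nearest peak, Prl3d1 33.3 kb, and Prl3b1, placental lactogen II, 38.6 kb.

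The main Prl cluster, 23 genes between 27057570 and 28151595 on chromosome 13, has no other protein-coding gene. With 5 kb added at each end it spanned 1.104 Mb and held 12 peaks, or 10.9 per Mb (exact Poisson 95% interval 5.62 to 19.0). Windows of 1 Mb over the genome had a median of 12 peaks (quartiles 8 and 18), those of chromosome 13 also 12, and windows with 15 to 30 protein-coding genes 23. The Prl cluster was therefore close to an average stretch of its chromosome in peaks, and below the median of stretches as rich in genes. The 12 peaks held a median of 17.6 normalized tags, and 1 was strong (chr13:28129426-28131018, 54 tags, 40.6 to 70.5), 11.5 kb from Prl5a1. The windows of the members, which covered 37.1% of the cluster, held 2 of the 12 peaks (16.7%), and peaks covered 1.04% of the sequence.

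The longest stretch of the cluster without a peak ran 287 kb, from 27542850 to 27829888, and held 8 genes whole: Prl8a9, Prl8a1, Prl7b1, Prl7a1, Prl7a2, Prl7d1, Prl7c1 and Prl2a1. All 5 Prl7 genes among the members are in it. The 7 peaks before it held 11 to 33 normalized tags, and 3 of the 5 peaks after it stood at 34.6 or above, beside the median of 17.3 of all peaks.

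**Figure D3:**
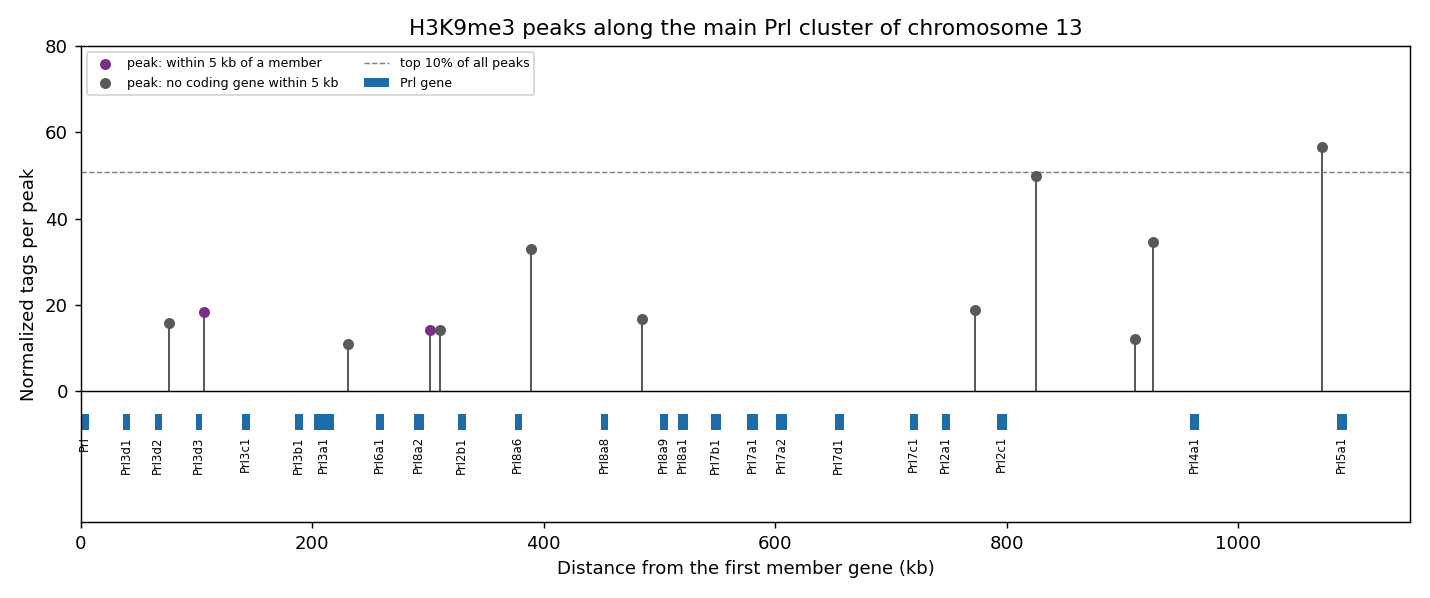
Normalized tags per H3K9me3 peak (vertical axis) along the main Prl cluster, by distance in kb from the first member gene; blue bars below are the Prl genes and the dashed line marks the top 10% of all peaks. Purple peaks lie within 5 kb of a member; the strong peak at the right stands at 56.6 normalized tags, and a stretch of 287 kb in the middle has no peak.

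The 3 proliferin genes Prl2c3, Prl2c2 and Prl2c5 form a second group on chromosome 13, between 12790816 and 13191930. None had a peak within 5 kb, and their nearest peaks were at 25.7, 16.0 and 41.1 kb. The sequence between them was rich in peaks, with 13 in 0.411 Mb or 31.6 per Mb (16.8 to 54.1), and 2 were strong. The highest, chr13:12859319-12863529, held 140.5 tags (118 to 166). The control library was also higher here, at a mean of 3.77 tags per peak against 1.33 in the main Prl cluster, with 15 of its 49 tags at that highest peak. The part of this control signal in the peaks was not tested.

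Among the Psg genes, Psg16, Psg20, Psg23 and Psg26 had 1 peak each. The peak at Psg20 (chr7:18675768-18676607) lay inside the gene and was the highest at any member, with 20 tags (12.2 to 30.9) and 0.5 control tag. The peak at Psg23 (chr7:18606408-18607045) overlapped the gene near its far end and held 16.5 tags, and that at Psg16 (chr7:17127460-17127960) lay inside the 59.4 kb span of this gene, the longest of the members, with 15 tags. The peak at Psg26 (chr7:18486916-18487549) began 2.72 kb upstream of the gene's span and held 17 tags. Control tags at these 4 peaks were 0.5 to 1.5. Psg17, whose product binds the tetraspanin CD9, had no peak, and neither did Psg19 or Psg22, which were 29.7 and 18.7 kb from one.

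**Figure D4:**
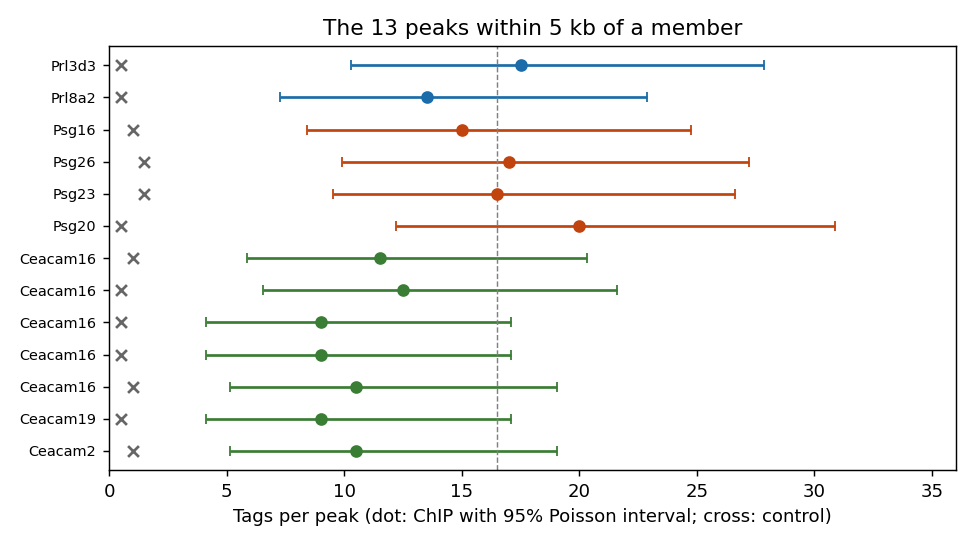
Tags per peak (horizontal axis) for the 13 H3K9me3 peaks within 5 kb of a member; dots are ChIP tags with exact Poisson 95% intervals, crosses are control tags, not scaled for the smaller control library, and the dashed line is the median of all peaks. Each of the 13 intervals spans the median of 16.5 tags, also those of the Ceacam peaks, which held 9 to 12.5 tags.

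The main Psg-Ceacam cluster lies between 16671331 and 18821591 on chromosome 7 and holds all 13 Psg genes, 8 Ceacam genes (Ceacam3, Ceacam5, Ceacam9 and Ceacam11 to Ceacam15) and 18 other protein-coding genes. Over 2.16 Mb it had 58 peaks, or 26.8 per Mb (20.4 to 34.7). This was above the Prl cluster, and the Poisson intervals did not overlap with all peaks counted. They did overlap with peaks within 5 kb merged, at 19.0 per Mb (13.6 to 25.7) against 10.9 (5.62 to 19.0), and also with peaks of at least 8-fold, with the upper part by score and with strong peaks alone. Windows of 1 Mb on chromosome 7 had a median of 14 peaks, with quartiles of 10 and 25. With 18.1 protein-coding genes per Mb, the cluster lay within the quartiles of windows of 15 to 30 protein-coding genes, 15.8 and 31.2. The 1 Mb on either side of it was denser, at 67.5 peaks per Mb. The members took little of this. Their windows covered 22.9% of the cluster and held 4 of its 58 peaks (6.90%) and 4.25% of its tags, and 4 of 21 members had a peak beside 10 of 18 other protein-coding genes. All 8 Ceacam genes in the cluster were without one.

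The 8 strong peaks of the cluster lay away from its protein-coding genes. Not one was within 5 kb of a member or of another protein-coding gene, and the closest to a member was 11.5 kb from Ceacam14. The highest, chr7:17663992-17667851, held 204.5 tags (177 to 235) beside 6 control tags, a deposited fold of 23.32, and lay within 5 kb of the pseudogene Psg-ps1. A second group of 3 strong peaks lay between Psg18 and Psg28, where chr7:18379885-18381839 held 80 tags (63.4 to 99.6). The highest peak at a member in this cluster reached 21 normalized tags, against 214.2 elsewhere in it, although the medians were close at 17.6 and 19.2.

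Density varied along this cluster, in stretches set after the data were seen. The 348 kb between Ceacam9 and Psg16, which holds 15 other protein-coding genes whole and no member, had 18 peaks or 51.7 per Mb (30.7 to 81.8). From Psg16 to Ceacam12 there were 20 peaks, or 19.7 per Mb (12.0 to 30.5), and from Psg18 to Psg17, a block of 11 Psg genes with no other protein-coding gene, 15 peaks, or 30.9 per Mb (17.3 to 50.9). Without the gene-rich stretch the Psg blocks thus still stood above the 10.9 per Mb of the Prl cluster, but their intervals overlap that of the Prl cluster. The longest stretch without a peak, 244 kb from 17863503 to 18107613, held Ceacam11, Ceacam13 and Ceacam12. In the gene-rich stretch the protein-coding genes with most tags were Prkd2 (4 peaks), Strn4 (2), Gng8 (3), Calm3 (4) and Dact3 (2), none with a strong peak. The peaks of Strn4 were also counted for Prkd2, and those of Dact3 for Gng8.

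**Figure D5:**
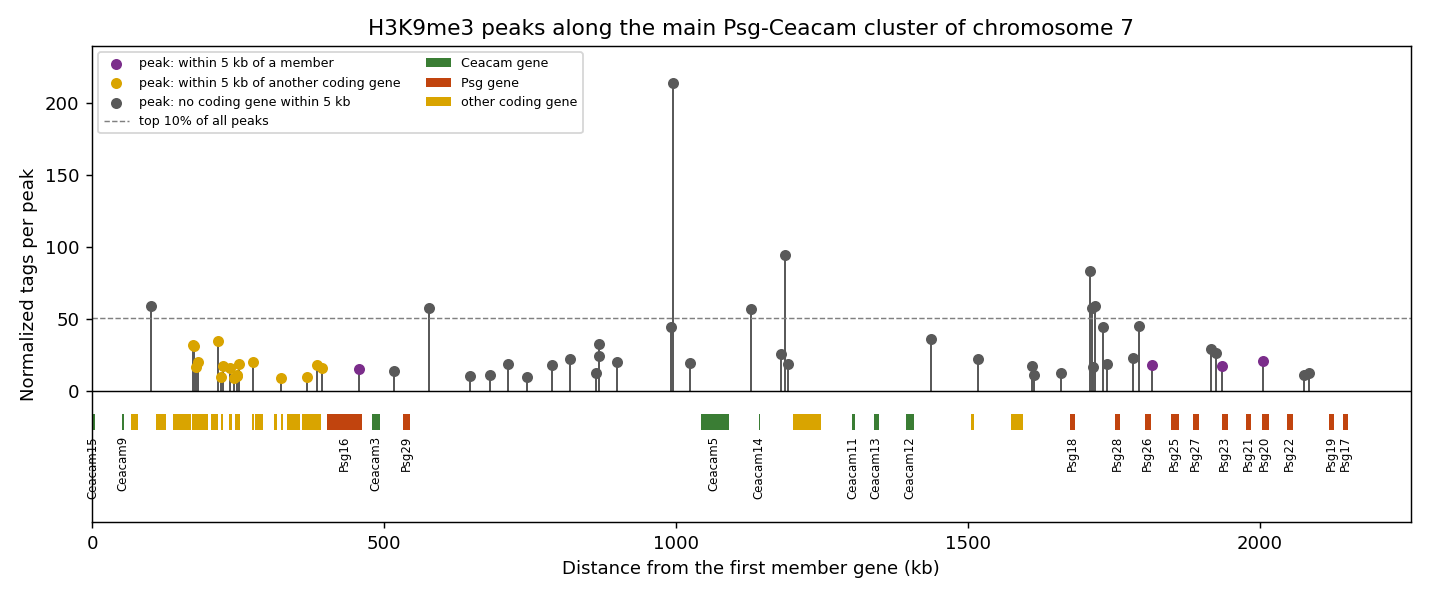
Normalized tags per H3K9me3 peak (vertical axis) along the main Psg-Ceacam cluster, by distance in kb from the first member gene; bars below are Psg genes (orange), Ceacam genes (green) and other protein-coding genes (yellow), and the dashed line marks the top 10% of all peaks. The 8 peaks above the line, up to 214.2, are all grey, the colour of peaks with no protein-coding gene within 5 kb.

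Outside the main cluster, 3 Ceacam genes had peaks, all of them low. Ceacam16, which encodes a protein of the tectorial membrane of the inner ear, had 5, the most of any member, with 9 to 12.5 tags each, and 4 of them overlapped its span. The gene Gm19345 overlaps it and shares 4 of these peaks. Ceacam19 had 1 peak of 9 tags (4.12 to 17.1) at 2.29 kb upstream of its span, and Ceacam2 had 1 of 10.5 tags (5.14 to 19.0) at 1.70 kb upstream. Ceacam10 and Ceacam18 had none, with nearest peaks at 7.34 and 26.9 kb.

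The gut-expressed members, Ceacam1 and Ceacam20, had no peak, and this held under each of the 5 other settings tried for them. Ceacam20 (chromosome 7, 19965352 to 19991113) was 11 kb from its nearest peak, of 18.3 normalized tags, and Ceacam1 (25461702 to 25477647) was 38.9 kb from its nearest, of 14.7. Of the 46 members taken as placental from general knowledge of these families (all Prl genes but Prl, all Psg genes and the 8 Ceacam genes of the main cluster), 6 had a peak (13%, exact 95% interval 4.94 to 26.3%), and their median distance to a peak was 19.0 kb. The remaining 6 members, Prl and 5 Ceacam genes with other or several sites, included 3 with a peak. With 2 gut-expressed genes, whose share of 0 has an exact upper bound of 84.2%, no difference from the placental members was detectable.

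With all peaks counted, the surroundings of the gut-expressed genes were denser in peaks than the main clusters. The stretch from Ceacam16 to Ceacam20 had 11 peaks in 0.149 Mb, or 73.8 per Mb (36.8 to 132), and the stretch from Ceacam10 to Ceacam2 had 40 in 0.773 Mb, or 51.8 per Mb (37.0 to 70.5). Both are gene-rich: all 4 other protein-coding genes of the first and 19 of 23 of the second had a peak. The peaks of these stretches had medians of 11 and 16.2 normalized tags, against 18.9 in the main Psg-Ceacam cluster, and 0 and 1 were strong. Merging of peaks within 5 kb was tried for the main clusters alone. The protein-coding genes next to Ceacam20 on either side, Igsf23 and Nlrp9b, had 1 and 2 peaks, and Cxcl17 and Lipe, at 48.8 and 63.2 kb from Ceacam1, had 1 and 2. The peak of Cxcl17 was also counted for Lipe. Of the genes with most tags in these surroundings, Pvr, 44.2 kb from Ceacam20, had 4 and Bcl3, 143 kb from it, had 5. Cic with 5, Pafah1b3 with 3 and Bckdha with 7 lay 168, 164 and 152 kb from Ceacam1, and Cic and Pafah1b3 share some of these peaks. Ceacam1 lay inside the longest stretch without a peak of its own neighbourhood, 119 kb from 25422757 to 25541702, together with Ceacam2, whose peak forms the far edge of that stretch.

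The starts of the members shared a low content of CG pairs. The promoter table gave a strand and start for 45 of 54 members. In the 300 bases around the start, from 250 before to 50 after, the members had a median of 2 CG and at most 5, against a median of 13 (quartiles 4 and 24) for 17491 protein-coding genes. A peak lay within 2 kb of the start in 1 of 45 members (2.22%), Ceacam2, against 30% of those protein-coding genes. Starts with at most 6 CG, as all 45 members have, carried a peak within 2 kb in 11.5% of genes, and starts with more CG in 40%. Whether base content moved the yield of tags was not tested.

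A few members had near-identical starts. Of 354 pairs within a family, 6 were at least 90% identical over these 300 bases, and 9 genes took part in them. Prl3d2 and Prl3d3 were 97.0% identical (295 of 304 aligned columns) and Prl3d1 and Prl3d2 87.4% (277 of 317). The sequences printed above are the 200 bases before each start, a part of the stretch compared. They show the Prl3d1 start offset from that of Prl3d2, so the lower value of this pair does not mean that its shared bases are less alike. Psg18 and Psg28 were 96.7% and Psg23 and Psg21 96.4% identical. Prl2c3, Prl2c5 and Prl7d1 were 94.0 to 95.3% identical to each other, and none of them had a peak within 5 kb. The median identity of a pair was 76.9% among Psg, 51.9% among Prl and 47.4% among Ceacam genes. Within the Psg23 and Psg21 pair, Psg23 had a peak and Psg21 was 19.0 kb from one. Within the Prl3d genes Prl3d3 had a peak, Prl3d2 was 6.00 kb from one and Prl3d1 33.3 kb. The peaks of Psg23 and Prl3d3 were not at the stretches compared, but 9.46 and 6.78 kb from the starts. How tags that fit several copies were placed is not given in the sources used here, and its part in the low number of peaks at members was not tested.

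The members' starts were also searched for 3 short motifs, on both strands of the same 300 bases. The letters TGANTCA (AP-1) were in 9 of 22 Prl, 3 of 10 Psg and 1 of 13 Ceacam genes, beside 8.12% of all protein-coding genes, and the Prl genes with it included all 3 placental lactogen I genes. The letters AGATAA (the GATA factor core) were in 10 of 22 Prl, 1 of 10 Psg and 7 of 13 Ceacam genes, beside 11.2% of all. The letters TATAAA were in 5 of 22 Prl genes, among them Prl and Prl3b1, in 0 of 10 Psg and in 4 of 13 Ceacam genes, beside 14.8% of all. A match of one motif can share end bases with a match of another, and copies of a gene can share a match by descent, so the counts are not of independent genes. The shares of all protein-coding genes are not matched for CG content, which is low at the members' starts, and its part in the motif counts was not tested.

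Genes whose products work with these families were counted the same way, beside 55.6% of all protein-coding genes, and longer genes have more room for a peak. Of the prolactin receptor signalling genes, 7 of 9 had one: the receptor gene Prlr, 172 kb long, had 2, Stat5a and Stat5b, the transcription factors it activates, 5 each, and the growth hormone receptor gene Ghr, 266 kb long, and the inhibitor Socs2 3 each, while Jak2 and Cish had 0. Stat5a and Stat5b lie within 5 kb of each other, so a peak can count for both, and the highest of each stood at 36.7 normalized tags. Of the partners of CEACAM and PSG proteins, 10 of 12 had a peak, led by the kinase gene Src with 7 and Cd9 with 4. Ptpn6, which encodes the phosphatase SHP-1 recruited by CEACAM1, had 3, and Ptprh, whose product acts on CEACAM20, had 1.

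Other placental genes were counted too. The 8 placental cathepsins, a further family of duplicated protease genes on chromosome 13, had a peak in 2 cases (Cts3 and Ctsr, 1 each), beside 35.5% of protein-coding genes of 5 to 20 kb on chromosome 13. Of 21 trophoblast regulators and products, 14 had one, beside 55.6% of all protein-coding genes. Slc2a3 led with 5, and Cdx2 and Gata3 had 4 each. The imprinted gene Peg10, Tfap2c and Ascl2 had a strong one. Ascl2 is also among the stem cell markers counted above, and alone among them had a strong peak. The product genes Tpbpa, Tpbpb, Plac1 and Synb and the regulators Elf5 and Gcm1 were among the 7 with none, and the product gene Syna had 2. Of 11 brush border and junction genes, 9 had a peak, beside the same 55.6%, among them Espn and Ezr with 5 each and Vil1 with 1. Cdh17 and Muc13 had none.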

How the data were processed

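The aligner Bowtie2 2.2.8, the suite HOMER 4.10.1 and the builds GRCm38 and mm10 are named in the submitters' processing notes; options of the peak calling are not stated there. Peaks were called on 1 ChIP library against 1 control, per the file headers. The deposited normalized tag count and control tags are signal values, the deposited score is a value that the caller gives each peak, the deposited fold over control is a ratio of scaled ChIP to control tags (lowest 4), and the deposited p-value came from the caller (highest 8.32e-05). Widths are in bp.

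Normalized tag counts fell in steps of 0.524, taken as 0.5 tag, and 100% of values below 20 were whole steps within 0.1, which gave the tags of each peak. The control held 0.684 of the ChIP library's tags. Gene spans came from RefSeq GRCm38.p6, and 348 genes listed with scaffold coordinates were left out (113 protein-coding, no member). No genome sequence was used, so repeats and the sequence of peaks were not analysed here. Members under 1 Mb apart were joined into clusters. Overlap counting was tested on simulated data. Members, lists and groups were chosen with earlier results of these data known. Every member with a peak was named, with members best known by function, the neighbours with most tags and, of each list, up to 4 genes with most peaks; further genes, among them those without a peak and the nearest neighbours, were chosen after their values were seen. From the brush border list 1 gene was left out of the counts and is not reported here. Pairs of starts were aligned globally with Biopython 1.88. Python 3.11.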

Additional observations from a re-analysis of the deposited data

How the results depend on the processing

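The low share of the members beside all protein-coding genes held for every window up to 10 kb. It also held for peaks of at least 8-fold (6 of 54 members, 47.3% of all protein-coding genes) and for the upper part by score (7 of 54, 40.8%). Ceacam1 and Ceacam20 had no peak with 10 kb on either side, and the other settings tried for them could not have added one. With the gene span alone, 4 members had a peak (46.6% of all), with 0 Prl, 3 Psg and 1 Ceacam gene. With 10 kb on either side 14 had one, with 4 Prl and 5 Ceacam genes. With the peak centre in the window 1 Prl gene had one, with a fold of at least 8 it was 2 Psg genes, and with the upper part by score 1 Ceacam gene. Of the settings chosen after the data were seen, strong peaks alone gave 0 members, and thus 0 Prl, 0 Psg and 0 Ceacam genes, and 50 kb gave 47, with 21 Prl, 13 Psg and 13 Ceacam genes. The Prl cluster held 0.906 strong peaks per Mb and the Psg-Ceacam cluster 3.70, and the covered share of base pairs was 1.04% and 2.5%. The Psg-Ceacam density was 19.9 per Mb for the upper part by score (14.4 to 26.8), where the Prl cluster fell to 8.15 (3.73 to 15.5), and 19.0 with peaks within 5 kb merged, where the Prl cluster was at 10.9. The intervals of the clusters overlap under both, which does not show that the densities are alike, and their difference was not tested. No paired analysis was possible because each group holds 1 library.

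With a lowest peak of 9 tags and 1 library, stretches with fewer tags cannot be told from unmarked ones, and at 9 to 20 tags per member peak the Poisson intervals of all 13 peaks overlap.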
